A study of Mus musculus with 2 samples.

Results

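The small proline-rich genes Sprr1a, Sprr1b, Sprr3, Sprr2a3 and Sprr2f were followed through sorted cells of mouse buccal mucosa. They were chosen by symbol, as 5 of the 15 Sprr genes among 27998 genes in the count tables. The cells came from the cheek lining of 10 pooled C57BL/6 females aged 12 weeks and had been sorted for high surface CD104, the integrin β4 chain that anchors basal keratinocytes. The single suspension was divided into 2 technical 10x libraries, called library 1 and library 2. There is thus 1 independent sample, no treated or control group, and no test of any difference below. Agreement of the 2 libraries covers capture and sequencing of that suspension, not variation between mice.

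Small proline-rich proteins are short precursors of the cornified envelope, the cross-linked protein shell that builds up under the membrane of a maturing squamous keratinocyte. Transglutaminases join their glutamine- and lysine-rich ends to loricrin, involucrin and to each other, and the proline-rich repeats between those ends give the shell flexibility. Sprr3 is best known from oral and oesophageal lining, Sprr1a and Sprr1b from wounded or stressed epithelium, the Sprr2a genes from epithelia meeting microbes or type 2 cytokines, and Sprr2f from the oestrogen-treated uterus.

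The proline repeats that name the family are visible in the coding sequence, and 1 stretch of each of 3 members is shown because these 3 had the clearest patterns among the classes below. Each stretch is the run of 40 codons with the most proline codons in the gene's coding sequence, so its count is a maximum. The stretches are printed 5′ to 3′ in the sense direction, from the GENCODE M21 transcripts on GRCm38, with proline codons (CCN) in capitals. The Sprr1a stretch starts at coding base 70 and ends at 189, the Sprr3 stretch runs from 22 to 141 and the Sprr2a3 stretch from 40 to 159.
Sprr1a: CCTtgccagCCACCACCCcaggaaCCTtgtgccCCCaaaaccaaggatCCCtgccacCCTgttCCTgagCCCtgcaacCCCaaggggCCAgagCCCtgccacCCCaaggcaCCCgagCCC
Sprr3: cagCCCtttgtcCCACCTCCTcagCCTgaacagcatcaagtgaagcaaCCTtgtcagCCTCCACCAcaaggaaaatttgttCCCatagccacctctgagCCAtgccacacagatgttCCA
Sprr2a3: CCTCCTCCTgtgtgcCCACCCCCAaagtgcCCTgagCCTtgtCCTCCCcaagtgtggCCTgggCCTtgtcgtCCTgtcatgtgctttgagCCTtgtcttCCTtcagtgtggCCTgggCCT
These stretches hold 16, 12 and 17 proline codons. Over the whole coding sequence proline took 31.9% of the codons of Sprr1a (432 coding bases), 30.7% of Sprr1b (459), 20.6% of Sprr3 (714), 31.3% of Sprr2a3 (249) and 39.5% of Sprr2f (228). The median over 21705 coding genes was 5.26%, and 5 genes had a higher share than Sprr2f.

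All 15 Sprr genes lie within 284.7 kb of chromosome 3, at chr3:92215799-92500493 in GRCm38 (the assembly of mm10). Sprr1b (chr3:92436809-92438789), Sprr3 (chr3:92456502-92458720) and Sprr1a (chr3:92483952-92485895) lie on the minus strand in 49.1 kb that hold 1 other gene, Gm37377. Sprr2a3 (chr3:92285417-92291405) and Sprr2f (chr3:92365187-92366442) are on the plus strand. Each has 2 exons, and no annotated gene overlaps them. The coding sequences of Sprr1a and Sprr1b were 78.4% identical, Sprr1a and Sprr3 46.7%, and Sprr2a3 and Sprr2f 64.1%.

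Sprr2a3 counts carry an uncertainty that the other members do not. Its coding sequence matched 246 of 249 bases (98.8%) of Sprr2a1 and of Sprr2a2. Among 226 windows of 75 bases in the last 300 bases of its transcripts, 112 (49.6%) in transcript Sprr2a3-201 and 153 (67.7%) in Sprr2a3-202 also occur in Sprr2a1 or Sprr2a2. The other members shared none. How reads that fit several of these genes were counted was not given, so Sprr2a3 stands here for what the authors' counting assigned to it.

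After cells with under 500 genes or over 10% mitochondrial UMIs were left out, 15470 of 16291 barcodes remained, 6907 in library 1 and 8563 in library 2. Cells were classed by Krt4 plus Krt13, the keratin pair of differentiating oral epithelium, as low (under 80 UMIs per 10000 UMIs of the cell, 7615 cells), intermediate (80 to under 350, 4345 cells) or high (350 or more, 3510 cells). High cells were classed further by Cnfn plus Lor plus Crct1, late envelope genes, at 5 or more (cornified), and by Krt16 plus S100a8 plus Alox15 at 10 or more (stress sum). This gave 99 and 149 cornified cells, 60 and 93 stress-sum cells, 5 and 3 cells with both, and 1290 and 1811 plain high cells with neither, in library 1 and library 2. In the high cells the stress sum was mostly Alox15, a lipoxygenase: 151 of 161 cells at the limit had 10 or more Alox15, 8 had 10 or more Krt16 and 1 had 10 or more S100a8. Of the marker sums, 7 basal markers went from 153 and 154 UMIs per 10000 in low cells to 19.1 and 21.6 in plain high and 10.7 and 14.3 in cornified cells. The 6 differentiation markers, Krt4 and Krt13 included, went from 46.5 and 47.9 to 694 and 712 and then 1161 and 1208. Markers of antigen-presenting cells were at 3.52 and 9.21 in low cells and at most 0.301 in plain high, cornified and stress-sum cells. Median depth was 6468 and 5390 UMIs in low, 8221 and 6911 in intermediate, 14180 and 11587 in plain high, 25358 and 18052 in cornified and 19366 and 16103 in stress-sum cells.

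Levels are the gene's UMIs per 10000 UMIs of a class, and intervals are exact 95% Poisson intervals for counting error only. To compare the share of cells with a UMI at equal depth, every cell was thinned to 3000 UMIs, which every kept cell reached. Free RNA can put UMIs into any droplet, so 62 immune cells (median 7603 UMIs), which should lack these genes, served as a reference. Their levels were 0.134 for Sprr1a, 0.0382 for Sprr3 and 0.497 for Sprr2a3, from 7, 2 and 26 UMIs, and no UMI of Sprr1b or Sprr2f was found (upper bound 0.0705). The Sprr2a3 reference was uneven: 1 UMI in library 1 (0.0560) and 25 in library 2 (0.726), of which 17 lay in a single cell. After thinning, 1 of the 62 cells had Sprr1a (1.61%), 1 Sprr3 and 3 Sprr2a3 (4.84%).

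Sprr3 was the member most restricted in level to cornified cells. Its level there was 2.58 (2.38 to 2.79) in library 1 and 5.04 (4.80 to 5.29) in library 2. The 8 cells with both marks had 1.35 and 1.93. Every other class was below 0.1: plain high cells had 0.0378 and 0.0390, intermediate cells 0.0605 and 0.0424, low cells 0.0179 and 0.0222, and stress-sum cells 0.0732 and 0.0381. Cornified cells were 1.43% and 1.74% of the cells and held 70.6% and 86.9% of all Sprr3 UMIs. After thinning, 28.3% and 29.5% of cornified cells had a Sprr3 UMI (54.5% and 49.7% before). The share was 0.775% and 1.10% in plain high cells (3.49% and 4.20% before), below the immune reference, so a Sprr3 UMI in a plain high cell is not distinguished from free RNA. In stress-sum cells it was 1.67% in library 1 and 0 of 93 in library 2 (upper bound 3.89%).

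Sprr1a was also high in cornified cells, but was present in every class. It reached 5.30 and 11.4 in cornified cells, 10.8 and 31 in the cells with both marks, and 2.61 and 1.95 in stress-sum cells. Plain high cells had 0.660 and 0.645, intermediate cells 0.783 and 0.511 and low cells 0.542 and 0.407. Cells with 10 or more glandular-marker UMIs per 10000 (84 and 72 cells), whose markers summed to 1.54 and 1.29 in low cells and at most 0.286 in intermediate and plain high cells, had 17.0 and 12.9 Sprr1a from 899 and 507 UMIs. A library 1 cell of these held 337. Without glandular and immune cells the mean log2 ratio of high to low cells went from 1.81 to 2.61. Plain high, intermediate and low cells overlapped as neighbours in the order of levels, while cornified, stress-sum and plain high cells were apart in both libraries. Plain high cells were above low cells in both libraries, by less in level than in share of cells. After thinning, 10.8% and 11.8% of plain high cells had a Sprr1a UMI (30.7% and 29.2% before). In low cells the share was 2.96% and 3.42% (5.69% and 6.10% before). It was 53.5% and 65.1% in cornified cells (88.9% and 87.2% before) and 23.3% and 28.0% in stress-sum cells (51.7% and 47.3% before). Cornified cells held 21.9% of the Sprr1a UMIs in library 1 and 47.9% in library 2.

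Sprr1b, the close relative of Sprr1a, was high in cornified and in stress-sum cells alike. It was at 0.954 and 1.24 in cornified, 1.28 and 0.590 in stress-sum, 1.88 and 7.55 in the cells with both marks and 0.0792 and 0.0460 in plain high cells. Intermediate cells had 0.362 and 0.118, and low cells 0.132 and 0.108. Cornified and stress-sum cells overlapped, and plain high cells had the lowest level of all classes in both libraries. After thinning, 13.1% and 13.4% of cornified (30.3% and 32.9% before) and 6.67% and 11.8% of stress-sum cells (18.3% in both libraries before) had a Sprr1b UMI, against 1.32% and 0.994% of plain high cells (4.88% and 3.92% before). No immune cell of 62 had a Sprr1b UMI after thinning, which leaves an upper bound of 5.78%, so the share in plain high cells is not distinguished from free RNA.

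Among high cells Sprr2a3 took the other branch. In low and intermediate cells it was also higher with a cornified sum of 5 or more, as were Sprr1a, Sprr1b and Sprr3. The Sprr2a3 log2 ratios there were 5.67 and 5.06 in low and 5.15 and 1.69 in intermediate cells. Stress-sum cells had 16 (15.3 to 16.7) and 18.4 (17.7 to 19.0) UMIs per 10000, while cornified cells had 0.537 and 1.23 and plain high cells 0.590 and 0.405. Intermediate cells had 1.01 and 1.33 and low cells 0.660 and 0.339. The 5 library 1 cells with both marks had 22.3, and the 3 in library 2 had 0.296, from 2 UMIs. Stress-sum cells were 0.869% and 1.09% of the cells and held 27.7% and 38.1% of the Sprr2a3 UMIs. After thinning, 53.3% and 68.8% of stress-sum cells had a Sprr2a3 UMI (71.7% and 82.8% before). The share was 6.06% and 9.40% in cornified (14.1% and 19.5% before), 5.27% and 4.42% in plain high (11.6% and 11% before), 4.13% and 5.06% in intermediate (7.70% and 8.22% before) and 2.64% and 2.81% in low cells (4.66% in both before). These lie inside the exact binomial interval of the immune cells, 1.01% to 13.5%.

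Sprr2f had its highest mean level in low cells, but not its highest share of cells. Low cells had 0.147 and 0.118 UMIs per 10000, intermediate cells 0.147 and 0.0528, plain high cells 0.00777 and 0.00350, cornified cells 0.0289 and 0.00624 and stress-sum cells 0.0244 and 0.121. The levels in low cells came from few cells: 26 of 3517 cells in library 1 and 15 of 4098 in library 2 held all 369 and 291 UMIs. Before thinning, 0.739% and 0.366% of low cells had a Sprr2f UMI against 1.44% and 0.632% of high cells. After thinning the shares were 0.341% and 0.244% in low, 0.362% and 0.332% in intermediate and 0.275% and 0.146% in high cells.

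**Figure D1:**
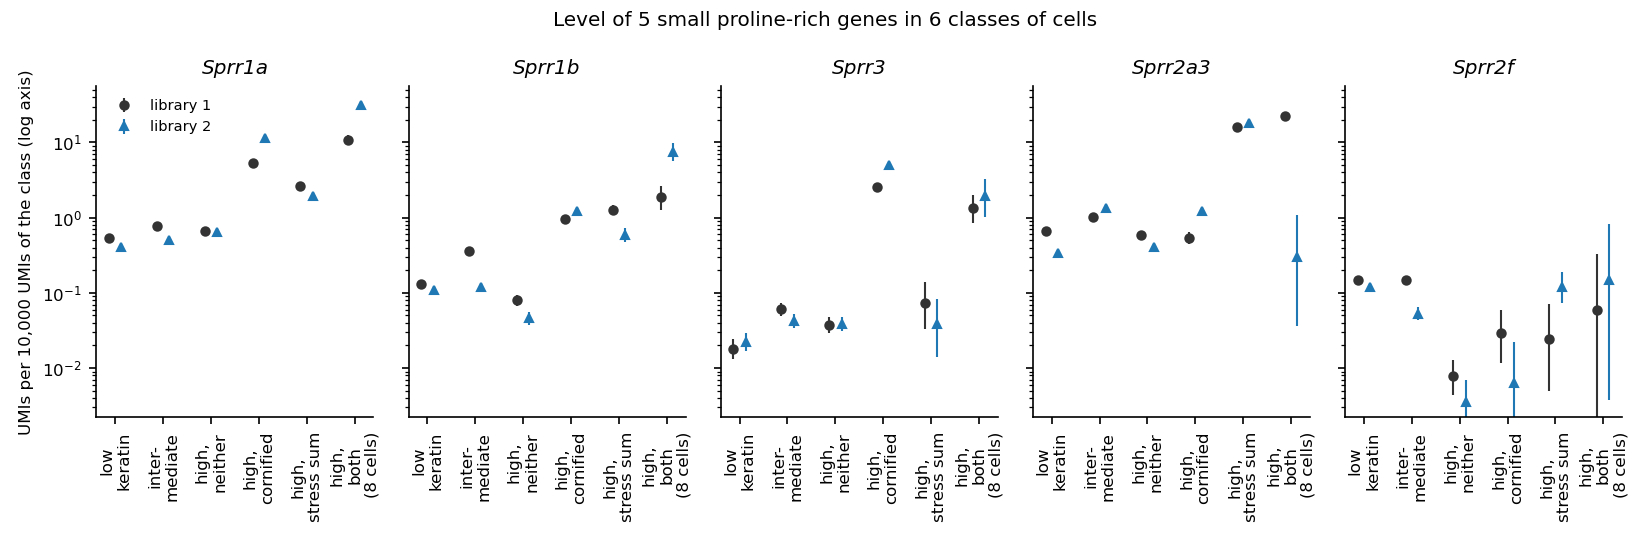
Level of each of the 5 genes (UMIs per 10000 UMIs of the class, log axis) in 6 classes of cells, with 1 point per library and exact 95% Poisson intervals, some of which run past the foot of the axis for Sprr2f. Sprr3 stands at 2.58 and 5.04 in cornified cells and below 0.1 in plain high, stress-sum, intermediate and low cells, and Sprr2a3 at 16 and 18.4 in stress-sum cells.

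A gene was called different between classes where both libraries gave a difference of at least 1.5-fold the same way and its mean over the classes compared reached 0.05. From low to intermediate cells Sprr2a3 was the only member of 4 above that minimum to be called: it was higher, by 1.53-fold in library 1 and 3.92-fold in library 2, where 4.11% of 9221 genes were higher and 9.87% lower. Sprr1a (log2 ratio 0.53 and 0.33), Sprr1b (1.46 and 0.12) and Sprr2f (0.00 and -1.15) were not called, and Sprr3 was under the minimum. The Sprr2a3 call was lost at a mitochondrial limit of 5%, under a 2-fold rule and without cells at 10 or more Krt16. From intermediate to high cells Sprr1a (log2 0.76 and 2.00) and Sprr3 (2.38 and 3.88) were higher, 2 of 5 members where 4.47% of 8665 genes were. Sprr2f was lower (log2 -3.71 and -2.29), where 21.3% of genes were, and Sprr1b (-0.55 and 0.99) and Sprr2a3 (0.63 and 0.19) were not called. The Sprr1a call was lost at a mitochondrial limit of 5%, without cycling cells and under a 2-fold rule. The Sprr2f call was lost in 7 of 19 alternatives, among them the mean of per-cell levels (log2 -1.47), cells thinned to 3000 UMIs (-1.82), leaving out the 5% of cells with most UMIs (-0.34) and library 2 alone. Over the whole span from low to high cells, 4 of 5 members were higher where 8.71% of 9027 genes were: Sprr3 by 22.2-fold, Sprr1a by 3.50-fold, Sprr2a3 by 3.26-fold and Sprr1b by 2.01-fold, as means over libraries. The Sprr1b call was lost at a mitochondrial limit of 5% (mean log2 0.48), without the 5% of cells with most UMIs (0.62), without cycling cells (0.22), at a level minimum of 0.2 and under a 2-fold rule. Sprr2f was lower, with log2 ratios of -3.71 and -3.44, where 37.1% of genes were, a call lost in 5 of 19 alternatives, the mean of per-cell levels and thinning among them. The median log2 ratio of all genes was -0.42 in this last comparison, -0.30 from intermediate to high and -0.10 from low to intermediate.

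Within the high cells, Sprr1a, Sprr1b and Sprr3 were higher with cornification and Sprr2a3 was not called. Cornified cells without the stress sum had 94.0-fold more Sprr3 than plain high cells (log2 6.09 and 7.01), 18.0-fold more Sprr1b (3.59 and 4.75) and 11.9-fold more Sprr1a (3.01 and 4.14). That made 3 of 4 members above the minimum where 5.56% of 7965 genes were higher and 10.4% lower, against a median log2 ratio of -0.19 over all genes. Sprr3, at 0.0378 and 0.0390 in plain high cells, passed the minimum only through cornified cells, which favours a call. Sprr2a3 had log2 ratios of -0.14 and 1.60. Comparing all cornified with all other high cells gave the same 3 calls where 5.55% of genes were higher and 9.70% lower. Cornified cells were also the deepest, and with every cell thinned to 3000 UMIs the same 3 members were called.

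Stress-sum cells without cornification had 35.1-fold more Sprr2a3 (log2 4.76 and 5.50), 14.4-fold more Sprr1b (4.01 and 3.68) and 3.46-fold more Sprr1a (1.99 and 1.60) than plain high cells. All 3 members above the minimum were higher, where 2.39% of 7996 genes were, 6.57% were lower and the median log2 ratio was -0.21. Sprr3 and Sprr2f were under the minimum. Between all high cells at and under the stress limit the same 3 members were called, where 2.20% of genes were higher and 5.96% lower, and the Sprr1a difference was then 2.22-fold. That Sprr1a call was lost in 5 of 22 alternatives: a stress limit of 5 (mean log2 1.13), leaving out the 5% of cells with most UMIs (1.22), a 2-fold rule, leaving out cells with 10 or more Krt16 (0.34) and Alox15 alone for the sum (0.61). The last 2 were added after the data were seen. Sprr1b kept its call in those 2, at 1.72 and 2.02, and Sprr2a3 at 5.03 and 4.98.

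Among the stress-sum cells, the 8 that were also cornified had more Sprr3 (log2 4.20 and 5.66) and Sprr1a (2.05 and 3.99) than the other 153. These were 2 of 4 members above the minimum where 7.67% of 5229 genes were higher and 5.05% lower. Sprr1b (0.55 and 3.68) and Sprr2a3 (0.48 and -5.95) were not called.

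Krt16, the keratin of wounded and hyperproliferating epithelium, and Alox15 enter the same sum, so the members were also read against each separately, a split added after the data were seen. Low cells with 10 or more Krt16 numbered 21 and 19, and with 10 or more Alox15 7 and 6. Intermediate cells numbered 10 and 24 with Krt16 and 16 and 34 with Alox15, and a cell may be in both sets. In low cells with 10 or more Krt16, Sprr2f was at 10.4 and 11.9 UMIs per 10000, and 7 and 4 of these cells held 350 of the 369 and 280 of the 291 Sprr2f UMIs of all low cells. Low cells with under 10 of each had 0.00768 and 0.00449. Krt16-rich intermediate cells had 12.4 and 2.88, and intermediate cells with under 10 of each 0.0101 and 0.00541. Nearly all Sprr2f UMIs of the low class thus lay in a few Krt16-rich cells. The 8 and 12 low cells with a cornified sum of 5 or more held 285 and 189 of these UMIs, at 29.1 and 28 UMIs per 10000. The 189 all lay in a single cell. Most of these UMIs lay in cells that were Krt16-rich as well. A tie to Krt16 and a tie to the cornified sum therefore cannot be told apart here. Without cells at 10 or more Krt16 the mean log2 ratio of Sprr2f between high and low cells turned from -3.57 to 0.79.

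Sprr1b was also high in Krt16-rich low cells, at 8.54 and 9.49, and in Alox15-rich low cells of library 2 (13), but not of library 1 (0.121). Among cells with neither gene it had 0.0178 and 0.0180 in low, 0.0691 and 0.0232 in intermediate and 0.186 and 0.192 in high cells. Sprr1a had 17.1 and 10.6 in Krt16-rich low cells against 0.316 and 0.310 with neither. In Krt16-rich intermediate cells Sprr1a had 33.9 and 16.3, against 0.403 and 0.239, and Sprr1b 25.1 and 5.73, against 0.0691 and 0.0232. Both genes were thus higher in Krt16-rich cells in both libraries and at both keratin levels, from 10 to 24 cells per library. Single cells weighed heavily in library 1. An intermediate cell with a stress sum of 275 held 410 of the 1424 Sprr1a UMIs of all intermediate cells. Another, with a stress sum of 217, held 225 of the 658 Sprr1b UMIs.

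Sprr2a3 was high with either gene. In intermediate cells it had 54.7 and 19.2 with Krt16, 34.2 and 44.1 with Alox15 and 0.333 and 0.278 with neither. After thinning, 87.5% and 91.2% of the Alox15-rich intermediate cells had a Sprr2a3 UMI. In high cells it had 17.2 and 18.3 with Alox15 and 0.586 and 0.531 with neither. Sprr3 had 0.149 and 0.0426 in Krt16-rich low cells and no UMI in Alox15-rich low cells. In Krt16-rich intermediate cells it had 2.79 and 0.162 against 0.0303 and 0.0411 with neither, the same direction as the other members, from 56 and 5 UMIs. In Alox15-rich high cells it had 0.161 and 0.0458. High cells with neither gene had 0.325 and 0.654 but include the cornified cells, and plain high cells had 0.0378 and 0.0390.

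**Figure D2:**
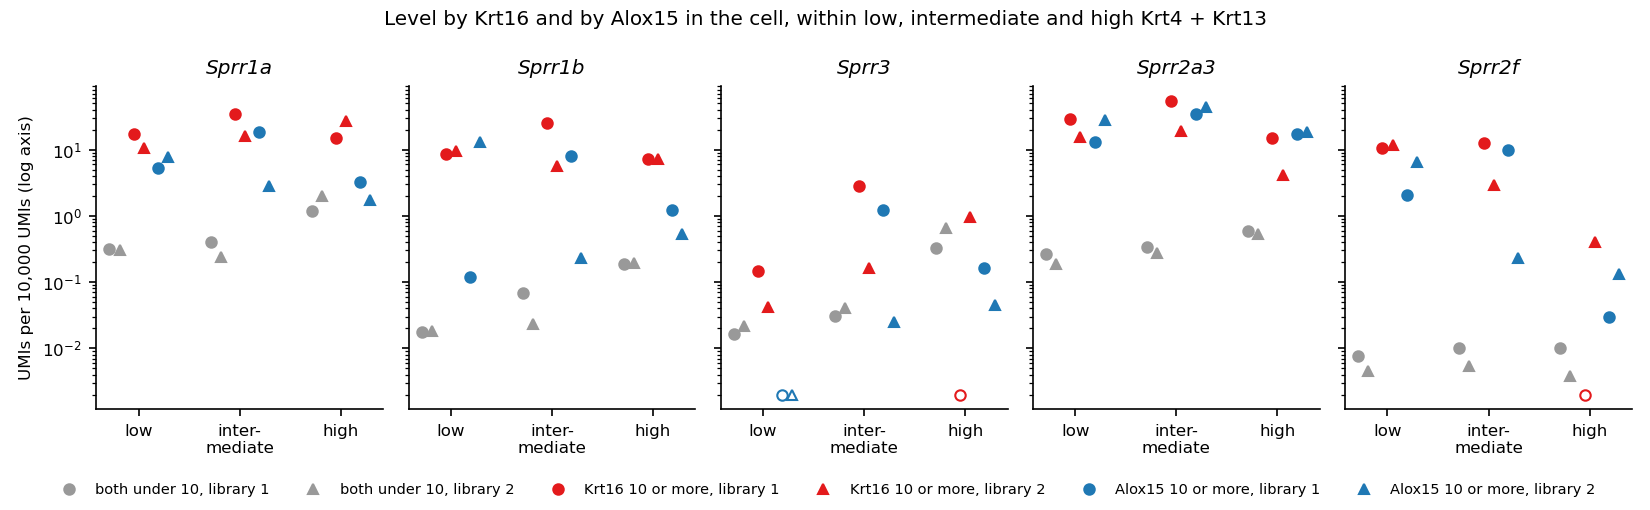
Level of each gene (UMIs per 10000, log axis) in low, intermediate and high cells, split into cells with 10 or more Krt16, cells with 10 or more Alox15 and cells under 10 of both, with 1 symbol per library; open symbols mark levels of 0 drawn at the foot of the axis. Sprr2f stands at 10.4 and 11.9 in Krt16-rich low cells and at 0.00768 and 0.00449 in low cells under 10 of both.

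All 5 genes were carried by few cells. The 1% of cells with most UMIs of a gene, 69 and 86 cells, held 65.4% and 63.7% of Sprr1a, 91.2% and 86.6% of Sprr1b, 86.7% and 89.9% of Sprr3, 80.2% and 75.5% of Sprr2a3 and 100% of Sprr2f in both libraries. The same share was 14.4% and 15.1% for Krt4, 9.91% and 9.21% for Krt14 and 92.2% and 91.7% for Krt16. For Sprr2f, 2 cells in each library held 50% of the UMIs, and for Sprr3 11 and 6 cells did.

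Single cells therefore set some levels. A library 1 cell with 42981 UMIs and 127 Krt4 plus Krt13 per 10000, an intermediate cell with a stress sum of 275, held 410 Sprr1a, 526 Sprr2a3 and 235 Sprr2f UMIs, which were 7.01%, 7.39% and 35.5% of the library's total for each gene. A library 2 cell with 45062 UMIs and 1512 Krt4 plus Krt13 per 10000, without stress genes, held 410 Sprr1a and 356 Sprr3 UMIs, 5.37% and 19.2% of the total. The top Sprr2f cell of library 2 held 189 UMIs (44.8%) and was a low cell, at 20.1 Krt4 plus Krt13 per 10000. Whether any of these barcodes held more than a single cell was not tested.

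**Figure D3:**
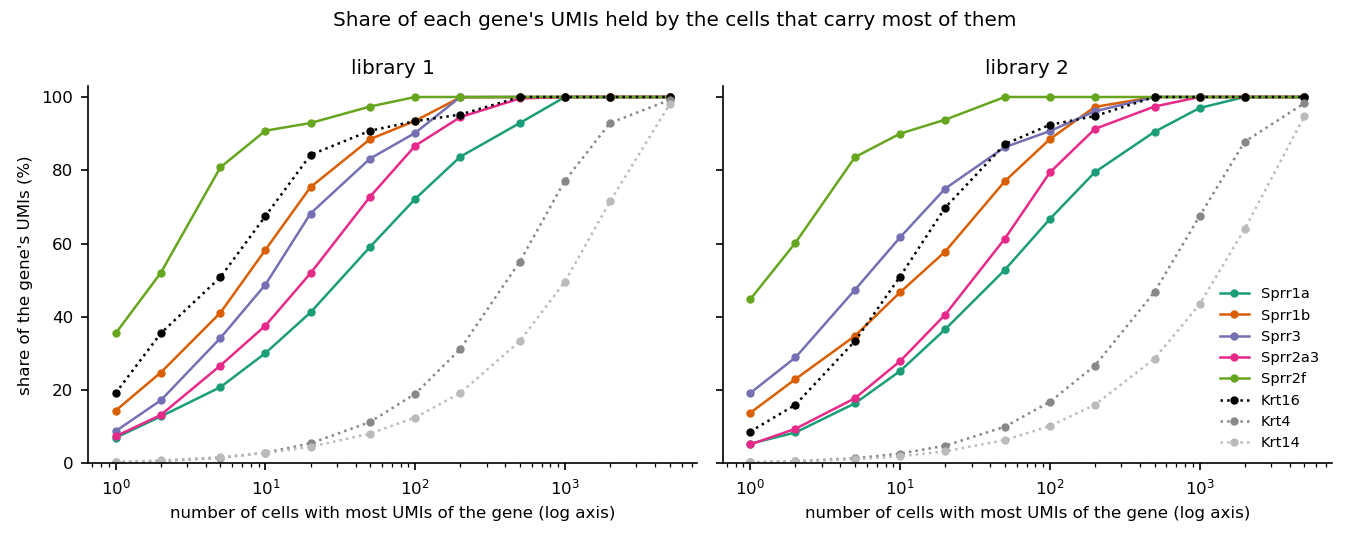
Share of each gene's UMIs (%) held by a growing number of the cells with most of them (log axis), for each library, with Krt16, Krt4 and Krt14 as dotted references. All 5 genes lie far above Krt4 and Krt14 at 69 and 86 cells, where Sprr2f has reached 100%.

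Along finer steps of Krt4 plus Krt13, also added after the data were seen, the share of thinned cells with a UMI rose for Sprr1a, Sprr1b and Sprr3 at the highest step. Between 350 to 700 and 700 or more UMIs per 10000 it went from 0.988% and 1.35% to 6.79% and 7.20% for Sprr3, and from 1.58% and 1.5% to 4.30% and 4.44% for Sprr1b. For Sprr1a it went from 10.5% and 12.3% to 23.8% and 25.4%. Sprr2a3 moved less, from 7.11% and 7.20% to 8.60% and 8.73%. Sprr2f went from 0.395% and 0.214%, which were 4 and 3 cells, to no cell of 442 and 653. The upper bounds there, 0.831% and 0.563%, include the earlier shares, so no fall is shown. Before thinning the Sprr2f share went from 1.09% and 0.713% to 2.26% and 0.459%. Cnfn, Lor and Crct1 were not used to form these steps.

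**Figure D4:**
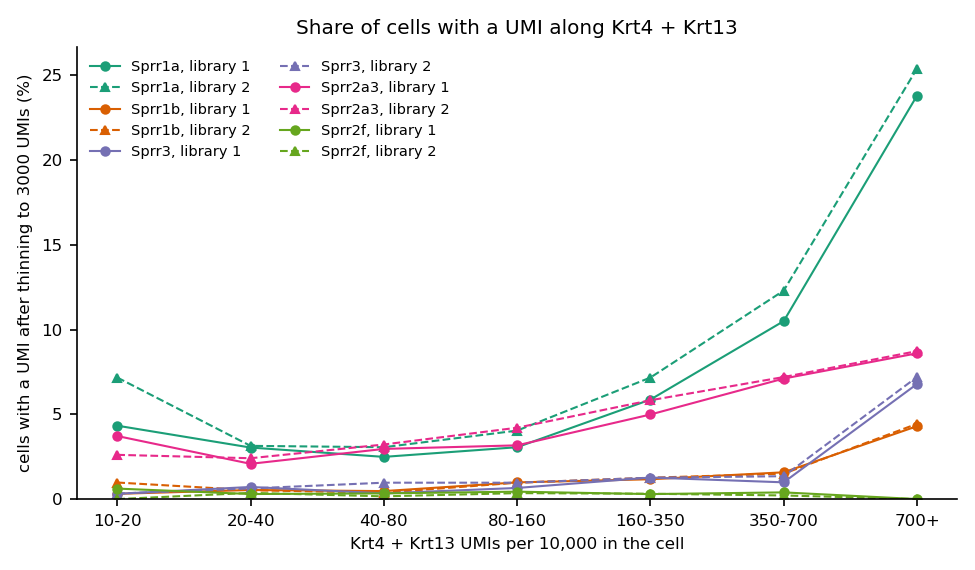
Share of cells with a UMI after thinning to 3000 UMIs (%) along steps of Krt4 plus Krt13 per 10000, by gene and library. Sprr1a ends at 23.8% and 25.4% and Sprr3 at 6.79% and 7.20% in the highest step.

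Across all high cells, several pairs of members shared more cells than the product of their shares gives. Among thinned high cells, Sprr1a and Sprr3 were found together in 22 and 45 cells where the product of their shares gives 5.80 and 10.9. Sprr1b and Sprr3 shared 9 and 15 cells against 0.963 and 1.61, and Sprr1a and Sprr1b 18 and 26 against 5.08 and 8.22. Within cornified cells alone Sprr1a and Sprr3 shared 18 and 39 against 15.0 and 28.6. Sprr3 and Sprr2a3 shared 4 and 8 high cells against 3.03 and 5.07. These counts are small and the cells of a library differ in class, so they are a description.

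The genes most like each member over the 1454 and 2056 high cells were ranked by the smaller library's Pearson r of log2(UMIs per 10000 + 1) among 4337 genes. These correlations share libraries and depth and carry no test. For Sprr3 they were Crct1 (0.67 and 0.73), Cnfn (0.61 and 0.61), Lor (0.51 and 0.58), which define the cornified class, then Ly6g6c (0.51 and 0.55), a surface Ly6 protein, and Sprr1a (0.39 and 0.51). For Sprr1a they were Cnfn (0.53 and 0.58), Ly6g6c (0.50 and 0.58), the retinol-binding protein gene Rbp2 (0.44 and 0.52), Crct1 (0.43 and 0.56) and Teddm3 (0.42 and 0.49). Sprr1b had Sprr1a (0.42 and 0.35), Sprr3 (0.31 and 0.37), Ly6g6c (0.30 and 0.36), the stress keratin Krt6b (0.32 and 0.25) and Cnfn (0.25 and 0.34).

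Sprr2a3 had other partners: Alox15 (0.60 and 0.64), the chitinase-like gene Chil4 (0.61 and 0.60), Gsdmc, a gasdermin (0.39 and 0.37), the MHC class I light chain B2m (0.33 and 0.28) and Txn1, a thioredoxin (0.30 and 0.27). Chil4 was at 903 and 1008 UMIs per 10000 in stress-sum cells, 50.9 and 46.7 in plain high and 30.8 and 23.5 in cornified cells. Ly6g6c was at 7.70 and 10.3 in cornified, 0.468 and 0.423 in plain high and 0.309 and 0.673 in stress-sum cells. Both genes were picked for their likeness over these same cells, so these levels describe that choice. No gene reached an r above 0.09 with Sprr2f in both libraries.

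The other Sprr2 genes were scarce and divided between the patterns of Sprr2a3 and Sprr2f. Sprr2a1, Sprr2a2 and Sprr2b had 402 and 392, 236 and 212, and 476 and 390 UMIs in all. In stress-sum cells without cornification they were at 1.0 and 0.997, 0.553 and 0.571, and 1.16 and 1.16 UMIs per 10000. In plain high cells they were at 0.0502 at most. All 3 were called higher, as was Sprr2j-ps (log2 3.97 and 4.99), where 2.39% of 7996 genes were higher. These genes reached the minimum mainly through stress-sum cells, which favours such a call. Sprr2a1 and Sprr2a2 share most of their sequence with Sprr2a3, so reads of any of the 3 could have been assigned to another. Sprr2b was 74.5% identical to Sprr2a3 in its coding sequence. Sprr2d had 127 of 139 and 51 of 89 UMIs in low cells and Sprr2e 65 of 86 and 20 of 20, as Sprr2f had 369 of 662 and 291 of 422. Only 12 and 5 low cells held the Sprr2d UMIs and 8 and 4 the Sprr2e UMIs. The Sprr2e coding sequence matched Sprr2f in 207 of 230 aligned positions and that of Sprr2d in 206 of 255. Sprr2h (285 and 253 UMIs) was mainly in low and intermediate cells. Sprr2k (22 and 43 UMIs) and Sprr2i (51 and 96) reached 0.0207 and 0.0468, and 0.00826 and 0.0374, in cornified cells, below the minimum level, and Sprr4 had no UMI.

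**Figure D5:**
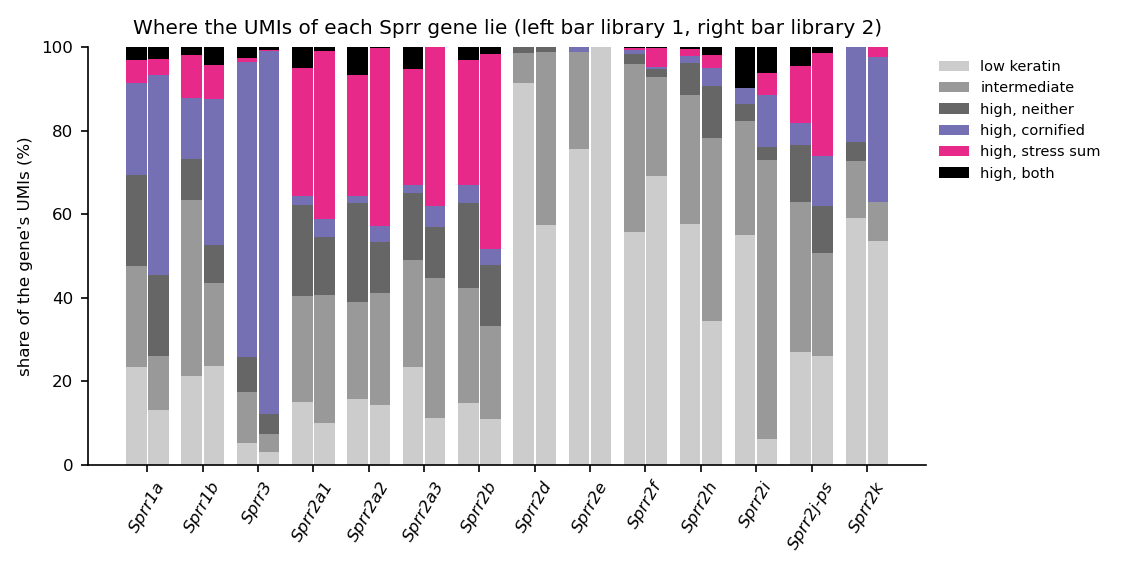
Share (%) of each Sprr gene's UMIs by class of cell, with the left bar for library 1 and the right bar for library 2. Cornified cells hold 70.6% and 86.9% of Sprr3, and low cells 91.4% and 57.3% of Sprr2d.

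Because the members were high in different cells, the 250 bases before the start of 3 of them are printed, 5′ to 3′ on the gene's own strand, from RefSeq on GRCm38.p6. Capitals mark matches to the AP-1 motif TGANTCA, the octamer ATTTGCAT and TATAAA. Both strands were searched in windows of 250 bases before to 50 after the start, and these motifs do not overlap each other here. The windows printed are chr3:92485882-92486131 (Sprr1a, minus), chr3:92458721-92458970 (Sprr3, minus) and chr3:92364937-92365186 (Sprr2f, plus).
Sprr1a: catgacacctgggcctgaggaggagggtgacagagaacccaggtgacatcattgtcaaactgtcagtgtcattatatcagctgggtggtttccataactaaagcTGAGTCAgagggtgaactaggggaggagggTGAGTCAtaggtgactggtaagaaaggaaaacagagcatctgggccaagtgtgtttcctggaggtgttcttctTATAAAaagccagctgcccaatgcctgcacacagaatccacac
Sprr3: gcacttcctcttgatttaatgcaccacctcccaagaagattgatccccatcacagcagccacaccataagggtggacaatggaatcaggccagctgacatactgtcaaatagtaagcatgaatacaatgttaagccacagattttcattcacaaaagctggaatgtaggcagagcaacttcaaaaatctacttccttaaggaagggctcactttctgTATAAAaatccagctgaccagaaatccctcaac
Sprr2f: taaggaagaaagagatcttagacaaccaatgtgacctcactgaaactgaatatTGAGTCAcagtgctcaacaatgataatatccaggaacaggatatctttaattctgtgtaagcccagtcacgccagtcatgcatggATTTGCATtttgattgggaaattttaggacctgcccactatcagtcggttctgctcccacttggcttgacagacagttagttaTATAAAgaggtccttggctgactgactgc
Sprr1a has 2 AP-1 matches and Sprr3 none, and both were high in cornified cells. Sprr1b, present in cornified and stress-sum cells, has 1. Sprr2f has 1 AP-1 match and the octamer, and all 4 genes have TATAAA close to the start. Over 32851 promoters of the same length, 7.81% hold TGANTCA, 1.74% the octamer and 13.6% TATAAA. Of the 10 Sprr2 genes, 7 hold each of these motifs, and of Sprr1a, Sprr1b and Sprr3 none holds the octamer. Sprr2a1, Sprr2a2 and Sprr2a3 hold none of the 3 motifs, and their windows share most of their sequence. The RefSeq start of Sprr2a3 lies 113 bases upstream of the GENCODE start, and that of Sprr2a2 34727 bases downstream. The windows of these genes may therefore miss the promoters of the transcripts counted here. Motifs for KLF (CCNCNCCC), Ets (CAGGAA) and grainyhead (AACCNGTT) factors were also searched and are not marked. The KLF motif was in none of the 5 members and 49.5% of all promoters, the grainyhead motif in none and 2.09%. CAGGAA was in 3 of the 5 members, Sprr2a3 included, 9 of the 10 Sprr2 genes and 30.6% of all promoters. A match is a run of letters, and no binding was measured.

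Genes that build and cross-link the envelope were higher in cornified cells in many cases, and none was called higher at the stress limit. Over all genes, 5.55% were higher and 9.70% lower in cornified cells, and 2.20% and 5.96% at the stress limit. No higher gene among 13 or 25 is near that 2.20%. Of a list of 16 cross-linking and plaque protein genes, 8 of 13 above the minimum were higher in cornified than other high cells and none was lower, with a median log2 ratio of 1.37 against -0.18 over all genes. They include Tgm1, the membrane-bound transglutaminase (1.71 and 1.66), Scel, sciellin (2.67 and 2.43), and Krt78 (2.45 and 2.16). At the stress limit none of 13 was higher and Scel was lower (-1.17 and -1.27). Of 54 cornified envelope and differentiation genes, 18 of 26 were higher in cornified cells and none lower (median 1.45), while at the stress limit none of 25 was higher and 4 were lower (median -0.16, against -0.21 over all genes). Tgm3, whose enzyme cross-links small proline-rich proteins before they reach the membrane, was higher in high than in low cells (3.75 and 3.79). Of 12 S100 genes, 8 were above the minimum. Of these 1 was higher and 2 were lower in cornified cells, and none was called at the stress limit.

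Of 27 transcription factor genes, 6 of 23 were higher and 3 lower in cornified cells (median log2 -0.07). Over all genes 5.55% were higher and 9.70% lower there. Fos (1.46 and 1.33) and Jun (1.02 and 1.10), which form AP-1, and Klf4, a barrier regulator (1.26 and 1.31), were among those higher. Those lower were Fosl2 (-0.82 and -0.86), another AP-1 gene, Grhl2 (-1.07 and -1.05) and Trp63, the basal regulator (-0.97 and -0.72). At the stress limit 1 of 23 was called, where 2.20% of all genes were higher and 5.96% lower. It was Elf3, an epithelial Ets factor, higher by 1.01 and 1.52. From low to high cells 11 of 23 were higher and 3 lower, where 8.71% of all genes were higher and 37.1% lower. Grhl1 (2.92 and 3.05), Zfp750 (2.87 and 2.96) and Grhl3 (2.84 and 3.01) were among those higher. Those lower were Trp63 (-1.94 and -1.90), Ets2 (-1.53 and -1.54) and Grhl2 (-1.16 and -1.07).

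Cycling low cells, with 10 or more cycle-gene UMIs per 10000, had a lower Sprr1a level (0.192 and 0.222) than other low cells (0.832 and 0.594). The share of cells with a Sprr1a UMI differed less. Before thinning it was 5.78% and 6.13% of cycling against 5.63% and 6.08% of other low cells. After thinning it was 2.40% and 2.78% against 3.30% and 3.88%. The Sprr1b level was 0.0246 and 0.0218 in cycling low cells against 0.220 and 0.195. Its shares were 1.35% and 0.868% against 1.42% and 1.06% before thinning, and 0.225% and 0.231% against 0.641% and 0.675% after. In intermediate cells the Sprr1a level was again lower in cycling cells, at 0.161 and 0.197 against 1.14 and 0.714. The shares there were 10.5% and 10.9% against 10.1% and 11.5% before thinning, and 3.43% and 4.13% against 4.99% and 6.39% after. Sprr3 had 0.0219 and 0.0201 in cycling and 0.0145 and 0.0243 in other low cells, which shows no shared direction. Krt16-rich cells, high in Sprr1a and Sprr1b, and glandular cells, high in Sprr1a, were not left out of these comparisons. Whether they set the differences was not tested. Of the Sprr1b UMIs of the other low cells, a single cell held 90 of 303 in library 1 and 105 of 241 in library 2.

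Values near the limits of the classes were mixed. Sprr3 was at 0.711 and 0.189 in the 24 and 30 high cells with 4 to 5 cornified UMIs per 10000 and at 0.122 and 0.283 in the 14 and 17 cells with 5 to 6. Sprr2a3 was at 12.2 and 3.89 in the 22 and 22 high cells just under the stress limit (8 to 10) and at 6.91 and 12.9 in the 13 and 14 just above it (10 to 12). Sprr1a was at 1.19 and 0.481 with 300 to 350 Krt4 plus Krt13 and at 0.841 and 0.824 with 350 to 400. Other members did differ the same way in both libraries across a limit. Sprr1b went from 0.514 and 0.252 to 2.31 and 0.538 across the cornified limit, and Sprr2a3 from 0.395 and 0.252 to 0.0405 and 0.0566, from 1 and 2 UMIs above it. Across 350 Krt4 plus Krt13 Sprr2a3 went from 2.17 and 2.65 to 1.52 and 0.820.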

How the data were processed

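The deposited matrices hold whole-number counts of UMIs per gene and barcode. Per the submitters' processing notes Cell Ranger and the mouse build mm10 were used. The Cell Ranger version, the gene annotation and the cell-calling filter are not given in the sources used here. Library 1 held 7215 barcodes and 67962712 UMIs, and library 2 held 9076 barcodes and 73935792 UMIs. The lowest kept cells had 3364 and 3149 UMIs. The libraries had 96 kept barcode sequences in common, and each was treated as a separate cell.

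A cell needed 500 genes or more and no more than 10% of its UMIs from mitochondrial genes, which left out 821 barcodes. Doublets were not removed, and leaving out the 5% of cells with most UMIs was an alternative. UMIs were summed per class and library and scaled per 10000. Genes averaging 0.05 or more over the classes compared were called at 1.5-fold (log2 0.58) in both libraries. A gene below 0.05 in 1 class can pass only through the other, which favours a call. A count of 0 was set to 3 UMIs for a ratio, and no ratio was given where both counts were at or under 3. Intervals are exact Poisson (levels) and exact binomial (shares), at 95%, for counting error only. With 1 independent sample no p-value was computed. The size rule was tested on simulated Poisson counts per class, drawn from the same gene shares in both libraries without differences between cells. Comparing high with intermediate cells (8918 genes), it called all genes raised 2-fold. Comparing cornified with other high cells (8077 genes), it called 94.0% of those raised and 90.9% of those lowered 2-fold. The members' UMIs lay in few cells, so these figures do not carry over to them.

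Named were the 5 members, other Sprr genes with at least 10 UMIs, the class-rule genes, the 5 genes most correlated with each member among those at 0.2 UMIs per 10000 or more, and from each gene list up to 3 called genes per direction. The members and lists were chosen with earlier results of these data known. Sequences and positions came from GENCODE M21 on GRCm38 and from RefSeq on GRCm38.p6. The annotation behind the deposited counts may differ from both. Software was Python 3.11.15 with numpy 2.4.6, scipy 1.17.1, pandas 2.3.3, biopython 1.88 and matplotlib 3.10.9.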

Additional observations from a re-analysis of the deposited data

Results flagged for a closer look

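The direction of Sprr3 with the stress sum differed between keratin classes when cornified cells were included. Cells at 10 or more of Krt16 plus S100a8 plus Alox15 had more Sprr3 than the other cells of their class among low cells (mean log2 ratio 1.70) and among intermediate cells (3.24), in both libraries. Among high cells they had less in both libraries (mean -1.50). The high cells under the limit include the cornified cells, which hold most Sprr3. With cornified cells left out on both sides the log2 ratios among high cells were 0.95 and -0.03, which shows no shared direction. They rest on 9 and 6 Sprr3 UMIs in the stress-sum cells. Cells with a cornified sum of 5 or more were not left out of the low and intermediate cells, so these contrasts are unlike. The difference between these contrasts was not tested. In library 2 the ratios in low and intermediate cells were 0.47 and 0.89, so their size came mostly from library 1.

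The 821 barcodes left out for mitochondrial UMIs also held UMIs of members. Their levels were 0.506 UMIs per 10000 for Sprr1a (0.438 to 0.582), 0.0956 for Sprr1b (0.0673 to 0.132), 0.124 for Sprr3 (0.0914 to 0.164) and 0.377 for Sprr2a3 (0.319 to 0.444). All 4 were above the level of 3 UMIs in these barcodes, 0.00775, while Sprr2f had no UMI. That floor does not cover free RNA: in immune cells Sprr2a3 was at 0.497 and Sprr3 had an upper bound of 0.138, so neither stands above that reference here.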

How the results depend on the processing

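Of 172 recomputed counts of called members, 155 stayed within 1.5 times the reported count, among them every count under scaling by UMIs without Krt4 and Krt13 and under median-of-ratios scaling. The step from low to intermediate cells was the least stable. Its count of 1 became 2 with the mean of per-cell levels, with cells thinned to 3000 UMIs, with keratin limits of 100 and 400, without immune and glandular cells, without the 5% of cells with most UMIs and without a level minimum. It became 0 at a mitochondrial limit of 5%, under a 2-fold rule and without cells at 10 or more Krt16, and 3 by the share of cells with a UMI. It was 2 in either library alone. The 3 calls from intermediate to high cells became 5 with keratin limits of 60 and 300. The 5 calls from low to high cells became 3 at a level minimum of 0.2. Cornified against other stress-sum cells gave 4 calls instead of 2 at a cornified limit of 10, and 2 to 4 in single libraries. The stress limit within high cells gave 3 to 5 calls in single libraries. Of 489 recomputed ratios of single members, 487 kept their direction. The exceptions were Sprr2f without cells at 10 or more Krt16, with mean log2 ratios of 0.34 from intermediate to high and 0.79 from low to high cells. That setting, the share of cells with a UMI and Alox15 alone for the stress sum were added after the data were seen. No paired analysis was possible because both libraries belong to the same group. Small classes set the precision: 8 high cells had both marks, and Sprr2f had 26 and 30 UMIs among all high cells.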
